A study of Mus musculus with 22 samples.

Results

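The 6 genes described here make, move or use arginine in myeloid cells: Arg1, Nos2, Odc1, Slc7a2, Ass1 and Arg2. They were chosen by symbol, and all 6 have a row in the expression table, which holds 23953 gene symbols. Their levels were read in all 10 RNA libraries of the series, and 12 lists of ChIP-seq peaks were searched within 20 kb of each gene's start. The series asked how mutant huntingtin acts on microglia and on the transcription factors of the myeloid lineage.

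BV2 is an immortalised line of mouse microglia. Its cells carried a lentiviral vector, pCDH, in which the viral CMV promoter drives the insert and an EF1 promoter drives puromycin resistance. The insert encoded the N-terminal part of human huntingtin, with a tract of 128 glutamines in Nmu cells (the mutant fragment) and of 15 in Nwt cells (the wild-type fragment). The vector of pCDH cells was empty. Nmu, Nwt and pCDH cells each gave an RNA library at 24 h and another at a time that the sources give differently, 6 h in the table's header and 48 h in the labels. That library is called the one of the second time here, without assuming which of the times came first. Each construct also gave 1 ChIP-seq library per antibody, labelled 24 h, and the antibodies recognised PU.1, C/EBPα, C/EBPβ and the histone mark H3K4me2. The primary cells were adult microglia, purified from cortex, striatum and hippocampus by a density gradient and a sort for CD11b+ CD45low cells, and macrophages grown from bone marrow in medium conditioned by L cells. They came from mice with mutant (Q175/175) or wild-type (Q7/7) huntingtin, 1 library for each genotype and cell type. No group had any further treatment. Neither separate transductions for the BV2 libraries nor separate animals for the primary ones are stated, so a p-value here reflects the spread between these libraries, which may be technical.

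Arginine is the substrate that arginase and nitric oxide synthase share. Arginase (Arg1 in the cytosol, Arg2 in mitochondria) splits it into urea and ornithine, and ornithine decarboxylase (Odc1) turns ornithine into putrescine, the first polyamine. The inducible nitric oxide synthase (Nos2) turns arginine into nitric oxide and citrulline, argininosuccinate synthase (Ass1) takes the first step from citrulline back to arginine, and Slc7a2 is a transporter that carries arginine into the cell. In mouse macrophages and microglia a high Arg1 level is a customary sign of alternative activation, by interleukin-4 for example, and a high Nos2 level one of classical activation, by bacterial products or interferon-γ.

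RNA values are RPKM, reads scaled by transcript length and by depth, which allows levels of genes of different length to be compared. The values were whole multiples of 1 read, so the reads behind each could be recovered. The implied depth was 10.8 M to 14.0 M reads in BV2 libraries and 28.8 M to 47.8 M in primary ones. Microglial marker genes were checked against the labels. The 2 sorted microglia libraries had 410 and 477 RPKM of P2ry12 and 36.4 and 33.3 RPKM of Sall1, but none of the 6 BV2 libraries passed 0.061 RPKM of P2ry12, and Sall1 was at 0 in 5 of them. The macrophage libraries had 8098 and 7515 RPKM of Lyz2, a lysozyme, which reached at most 1398 RPKM in the other libraries. Of the other macrophage markers, Emr1 and Itgam were also highest in macrophages. Csf1r was higher in microglia (532 and 570 RPKM) than in macrophages (247 and 251 RPKM). Cd68 was highest in pCDH cells at 24 h (236 RPKM) and Mrc1 in Nwt cells at 24 h (87.4 RPKM). The median absolute log2 difference between Nwt and pCDH libraries over 9961 expressed genes was smaller (0.11 for 24 h, 0.10 for the second time) than that between Nmu and pCDH libraries (0.35 and 0.26).

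Arg1 was the member with the largest difference between constructs. In Nmu cells it stood at 1.34 RPKM (24 h) and 4.88 RPKM (second time). In Nwt cells it stood at 234 and 20.3 RPKM, and in pCDH cells at 189.7 and 22.5 RPKM. Both Nmu libraries thus lay below all 4 control libraries, and the gap was widest at 24 h. At that time 27 reads in Nmu cells stood against 3094 in pCDH cells, 141-fold fewer after scaling for depth (95% interval 97.0 to 215), and against 4529 in Nwt cells, 175-fold fewer (120 to 266). At the second time, 77 reads stood against 462 in pCDH cells, 4.61-fold fewer (3.61 to 5.95), and against 377 in Nwt cells, 4.16-fold fewer (3.25 to 5.39). These intervals, like all intervals on ratios below, are exact and cover counting error only. Between the times, Arg1 went opposite ways: it was 3.64-fold higher at the second time than at 24 h in Nmu cells (2.32 to 5.87), and 11.6-fold and 8.44-fold lower at the second time in Nwt and pCDH cells. Fewer cells that transcribe a gene and less RNA per cell cannot be told apart in such bulk libraries.

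Nos2 moved the other way. Its levels in Nmu cells were 9.31 RPKM (24 h) and 3.21 RPKM (second time). They were 1.23 and 0.777 RPKM in Nwt cells, and 1.98 and 0.541 RPKM in pCDH cells. Both Nmu libraries lay above all 4 control libraries. Against pCDH cells the ratio was 4.71 at 24 h (506 against 87 reads, 3.75 to 5.98) and 5.94 at the second time (137 against 30 reads, 3.98 to 9.14). Against Nwt cells it was 7.58 (5.84 to 10.0) and 4.13 (2.88 to 6.06). All 3 constructs had less Nos2 at the second time than at 24 h. The summed level of the 8 granulocyte marker genes was 219 and 6.16 RPKM in Nmu cells and 1.13 to 2.82 RPKM in the 4 controls. At 24 h it came almost wholly from Lcn2, which inflamed macrophages also make (219 RPKM), while S100a9 was at 0 in all 6 BV2 libraries, and its part in the Arg1 and Nos2 results was not tested.

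The ratio of Arg1 to Nos2 RPKM, which sets the cytosolic arginase beside the inducible synthase within a library, was below 1 in a single BV2 library. It was 0.144 in Nmu cells at 24 h (95% interval 0.0940 to 0.212) and 1.52 in Nmu cells at the second time (1.13 to 2.02). In Nwt cells it was 191 at 24 h (149 to 249) and 26.1 at the second time (18.7 to 37.3). In pCDH cells it was 96.0 (77.6 to 120) and 41.6 (28.7 to 62.3). The ratio was therefore lower in both Nmu libraries than in any of the 4 control libraries, and the transcripts of both enzymes contributed to it.

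Odc1, which commits ornithine to polyamines, had 53.9 RPKM (24 h) and 68.7 RPKM (second time) in Nmu cells. It had 18.1 and 54.2 RPKM in Nwt cells, and 15.7 and 56.1 RPKM in pCDH cells. The Nmu library at 24 h was close to the level that all constructs had at the second time, while the control libraries at 24 h were low. The ratio of Nmu to pCDH cells was 3.44 at 24 h (3.10 to 3.82) and 1.22 at the second time (1.15 to 1.30), and that of Nmu to Nwt cells was 2.98 and 1.27. From 24 h to the second time Odc1 differed by 1.27-fold in Nmu cells, by 3.00-fold in Nwt cells and by 3.57-fold in pCDH cells, higher at the second time in each.

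Slc7a2 followed Arg1 in direction. It had 1.75 and 2.07 RPKM in Nmu cells, 7.80 and 4.00 RPKM in Nwt cells, and 7.25 and 3.70 RPKM in pCDH cells, at 24 h and the second time in each case. Both Nmu libraries were below all controls, and the controls were lower at the second time than at 24 h, by 1.95-fold in Nwt cells and 1.96-fold in pCDH cells. Against pCDH cells, Nmu cells had 4.14-fold less at 24 h (185 against 621 reads, 3.51 to 4.91) and 1.78-fold less at the second time (172 against 399 reads, 1.49 to 2.14). The table holds another Slc7a2 transcript, nearly as long, with 1.74 and 2.03 RPKM in Nmu cells.

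Ass1 had 12.5 and 22.6 RPKM in Nmu cells, 11.5 and 12.3 RPKM in Nwt cells, and 13.5 and 9.60 RPKM in pCDH cells. At 24 h the Nmu library lay between the controls, and at the second time it lay above every other library. Its ratio to pCDH cells was 0.924 at 24 h (0.775 to 1.10) and 2.35 at the second time (1.99 to 2.79). Its ratio to Nwt cells at the second time was 1.84 (1.56 to 2.16). Reads of Ass1 are uncertain because a copy of the gene may share them: Gm5424, a transcribed pseudogene that RefSeq places on another chromosome, had 16.8 and 27.3 RPKM in Nmu cells and 12.2 to 17.9 RPKM in the 4 controls. Arg2, the mitochondrial arginase, was at or near 0 in BV2 cells, with 0 and 1 reads in Nmu cells and 0 or 1 in each control, so that no difference could be seen at this depth. It was left out of the BV2 tests by the filter, which asked for an RPKM of 1 in at least 2 libraries.

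**Figure D1:**
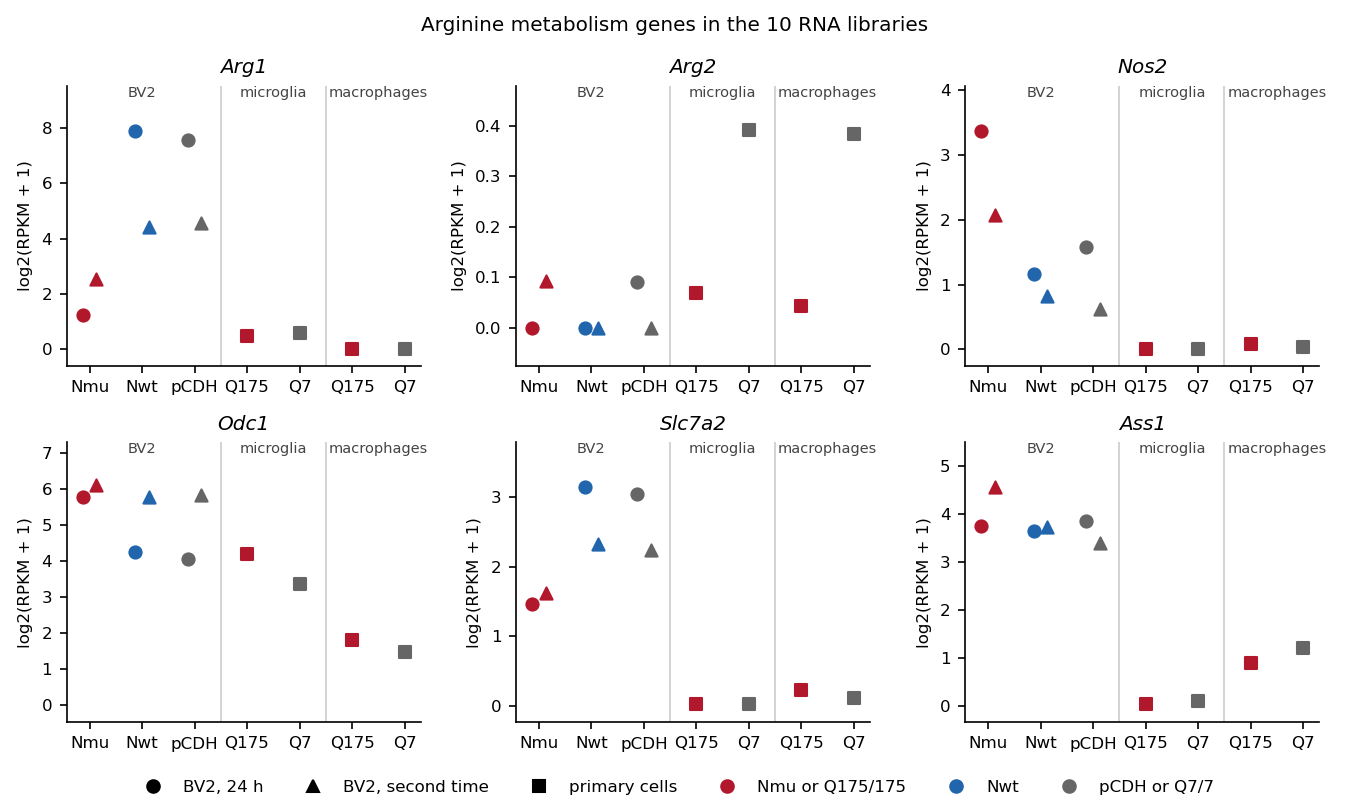
Level of the 6 genes in the 10 RNA libraries, as log2(RPKM + 1), with BV2 constructs, microglia and macrophages side by side. Circles are BV2 libraries at 24 h, triangles BV2 libraries at the second time and squares primary cells. Both Nmu libraries lie below the 4 control libraries for Arg1 (1.34 and 4.88 RPKM against 20.3 to 234) and above them for Nos2 (9.31 and 3.21 RPKM against 0.541 to 1.98).

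Differences were tested with limma over all genes on the log2(RPKM + 1) scale, a scale that understates the fold change of low genes. In the fit with construct and time as terms, the error is the change of the construct effect between the times. There, 0 of the 5 members tested passed an adjusted p of 0.05 between Nmu and pCDH cells, where 9 of 10350 genes did (0.087%). An unadjusted p under 0.05 was reached by 4 of the 5 and by 1584 of the 10350 genes. Between Nmu and Nwt cells it was again 0 of 5, against 7 genes in all (0.0676%). Of the 5, 3 reached an unadjusted p under 0.05, as did 1644 of the 10350 genes. The limma log2 difference of Nmu from pCDH cells was −4.17 for Arg1 (SE 1.21, adjusted p = 0.248), 1.62 for Nos2 (SE 0.27, adjusted p = 0.154), −1.10 for Slc7a2 (SE 0.30, adjusted p = 0.232), 1.00 for Odc1 (SE 0.38, adjusted p = 0.321) and 0.52 for Ass1 (SE 0.33, adjusted p = 0.500). For the wild-type fragment against the empty vector, limma called 0 members and 0% of all genes, with 66 genes and 0 members at an unadjusted p under 0.05. For the second time against 24 h over all 3 constructs, limma also called 0 members and 0% of all genes, although 2812 genes, Nos2 and Odc1 among them, had an unadjusted p under 0.05.

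Because the sizes above differed between the times, a fit was added after the data had been seen. It takes Nwt and pCDH cells as 1 control group, lets the effect of the mutant fragment differ between the times, and takes its error from the difference of Nwt and pCDH cells at each time. The lone Nmu library at each time is assumed to vary like the controls, so that a deviation of that library alone cannot be told apart from an effect of the fragment at that time. The fit was prompted by the differences that it tests, and its p-values are no independent evidence of them. At 24 h, limma called 4 of the 5 members, Nos2 and Odc1 higher and Arg1 and Slc7a2 lower, against 39.6% of all genes tested. The log2 difference of Nmu from control cells was −6.50 for Arg1 (SE 0.16, adjusted p = 0.000447), 2.00 for Nos2 (SE 0.20, adjusted p = 0.00280), 1.62 for Odc1 (SE 0.12, adjusted p = 0.00155) and −1.63 for Slc7a2 (SE 0.11, adjusted p = 0.00126). Ass1 was at −0.00 (adjusted p = 0.997). At the second time limma called 4 of 5 again, against 23.5% of all genes, but not the same 4. Nos2 (1.35, adjusted p = 0.0128) and Ass1 (0.99, adjusted p = 0.0195) were higher in Nmu cells, Arg1 (−1.93, adjusted p = 0.00596) and Slc7a2 (−0.66, adjusted p = 0.0164) were lower, and Odc1 did not pass (0.31, adjusted p = 0.133). Without the second pCDH library none of the 4 passed, with adjusted p-values of 0.0523 for Arg1, 0.0700 for Nos2, 0.0681 for Slc7a2 and 0.0707 for Ass1. Without the second Nwt library Arg1 passed and the others did not, with adjusted p-values of 0.0619 for Nos2, 0.0815 for Slc7a2 and 0.0560 for Ass1.

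**Figure D2:**
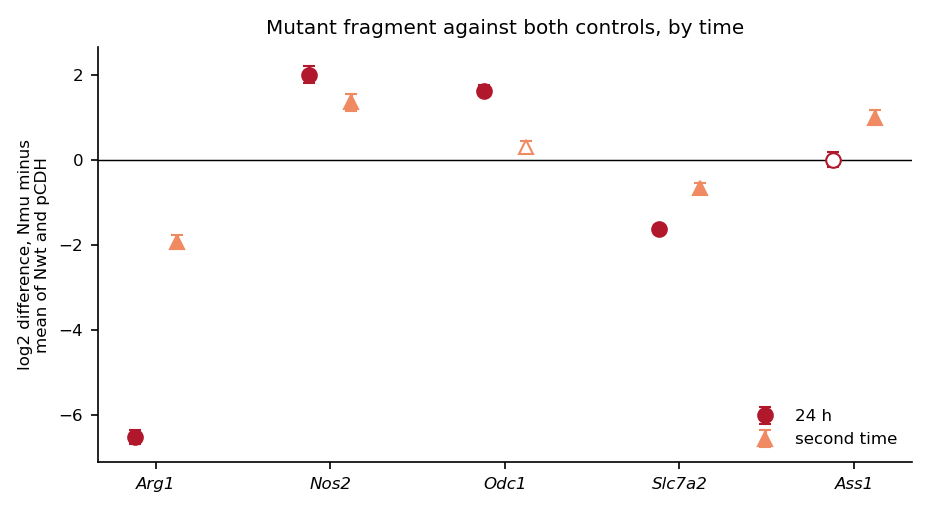
Log2 difference of log2(RPKM + 1) between Nmu cells and the mean of Nwt and pCDH cells at 24 h (circles) and at the second time (triangles), with the limma standard error. Filled symbols have an adjusted p under 0.05. Arg1 is at −6.50 and −1.93, Odc1 at 1.62 and 0.31, and Ass1 at −0.00 and 0.99.

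The difference of Nmu from control cells at the second time was set against that at 24 h in the same limma fit, under the same assumption, and 4 of 5 members passed, against 28.1% of all genes. The effect at the second time minus that at 24 h was 4.57 for Arg1 (SE 0.23, adjusted p = 0.00969), −1.31 for Odc1 (SE 0.18, adjusted p = 0.0122), 0.98 for Slc7a2 (SE 0.15, adjusted p = 0.0154) and 0.99 for Ass1 (SE 0.25, adjusted p = 0.0414). For Nos2 it was −0.65 (adjusted p = 0.147), so its excess in Nmu cells was not shown to differ between the times. Without the second Nwt library none of the 4 passed (adjusted p of 0.0502 for Arg1, 0.0529 for Odc1, 0.0558 for Slc7a2 and 0.0588 for Ass1). Without the second pCDH library Arg1 passed and the other 3 did not (0.0561, 0.0616 and 0.0912 in the same order). Ass1 also missed the threshold without either of the control libraries of 24 h (0.0664 without Nwt, 0.103 without pCDH). In control cells alone, the second time was set against 24 h. There Odc1 was higher (1.65, adjusted p = 0.00129), Arg1 (−3.24, adjusted p = 0.00114), Slc7a2 (−0.82, adjusted p = 0.00289) and Nos2 (−0.64, adjusted p = 0.0300) were lower, and Ass1 did not pass (−0.18, adjusted p = 0.340). Of all genes 46.9% were called there by limma, 68.4% of them higher, and 49.3% of the calls were higher after quantile normalization. Nos2 lost its call in control cells without the second Nwt library (adjusted p = 0.0773) and without either pCDH library (0.0862 for 24 h, 0.143 for the second time).

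All members but Arg2 had their highest means in the BV2 line. Arg1 averaged 117 ± 112 RPKM in BV2 control cells (SD, n = 4), 0.460 ± 0.081 RPKM in microglia (SD, n = 2), and had 0 reads in both macrophage libraries, a count that allows up to 3 reads in each. Ass1 averaged 11.7 ± 1.6 RPKM in BV2 control cells, 0.0470 ± 0.0354 RPKM in microglia and 1.08 ± 0.32 RPKM in macrophages. Slc7a2 averaged 5.69 ± 2.14 RPKM in BV2 control cells, 0.0165 ± 0.0035 RPKM in microglia and 0.120 ± 0.061 RPKM in macrophages. In all 3 of these genes the lowest BV2 control library was above the highest primary library. Nos2 averaged 1.13 ± 0.63 RPKM in BV2 control cells, had 0 reads in both microglia libraries, and stood at 0.0415 ± 0.0233 RPKM in macrophages, from 11 and 3 reads. Odc1, the most abundant member in primary cells, averaged 36.0 ± 22.1 RPKM in BV2 control cells, 13.5 ± 5.8 RPKM in microglia and 2.17 ± 0.52 RPKM in macrophages. Its microglial range, 9.33 to 17.6 RPKM, reached into that of BV2 control cells, 15.7 to 56.1 RPKM. Arg2 had its highest levels in primary cells, yet no library passed 0.311 RPKM.

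These cell types were fitted together in limma, with construct, time and genotype left in the error. Arg1, Nos2, Slc7a2 and Ass1 would have missed the filter, an RPKM of 1 in at least 2 libraries, without the BV2 control cells. A higher level in BV2 cells was thus built into their entry, and their calls against primary cells are no independent evidence of it. Arg2 was left out by the same filter. Between BV2 control cells and microglia, 4 of 5 members were called, all higher in BV2 cells, against 71.7% of all genes. They were Ass1 (log2 difference 3.59, adjusted p = 5.02e-07), Slc7a2 (2.66, adjusted p = 5.57e-05), Arg1 (5.56, adjusted p = 0.00144) and Nos2 (1.05, adjusted p = 0.00524), and Odc1 did not pass (1.19, adjusted p = 0.0881). Between BV2 control cells and macrophages all 5 members tested were called, again higher in BV2 cells, against 65.7% of all genes. They were Ass1 (2.61, adjusted p = 3.89e-06), Slc7a2 (2.52, adjusted p = 8.98e-05), Arg1 (6.10, adjusted p = 0.000954), Odc1 (3.33, adjusted p = 0.00103) and Nos2 (0.99, adjusted p = 0.00758). Without the Q7/7 macrophage library Nos2 did not pass there (adjusted p = 0.0517). The median over all genes was 0.23 against microglia and −0.27 against macrophages, and 36.1% of the calls against macrophages were higher, or 48.6% after quantile normalization. For the genes at 0 reads in a group, the size of the log2 difference depends on the constant added before the logarithm.

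Between microglia and macrophages, limma called 2 of 5 members, against 61.3% of all genes, with a median over all genes of −0.43. Odc1 was higher in microglia (2.14, SE 0.65, adjusted p = 0.0209) and Ass1 was lower (−0.98, SE 0.18, adjusted p = 0.00215). Odc1 did not pass without the Q175/175 microglia library (adjusted p = 0.125), without the Q175/175 macrophage library (0.0690) or without the Q7/7 one (0.101). Arg1 (0.54, SE 1.17, adjusted p = 0.715), Slc7a2 (−0.14, adjusted p = 0.732) and Nos2 (−0.06, adjusted p = 0.883) did not pass. The error of this fit is shared with the BV2 control libraries, where the SD of log2 Arg1 was 1.88, against 0.08 in microglia. For Slc7a2 the SD was 0.47 in BV2 control cells and 0.005 in microglia, and for Nos2 it was 0.41 and 0. The p-values of Arg1, Slc7a2 and Nos2 thus mainly reflect the spread of BV2 cells and cannot decide between microglia and macrophages. Arg1 had 17 and 26 reads in microglia and 0 in both macrophage libraries. Slc7a2 had 3 and 5 reads in microglia, and 60 and 18 in macrophages. Nos2 had 0 reads in both microglia libraries, and 11 and 3 in macrophages. Of the calls over all genes 27.7% were higher in microglia, and 51.0% after quantile normalization.

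The primary libraries also set mutant against wild-type huntingtin of the mouse, with 1 library on each side in each cell type and so no test within a cell type. Odc1 had 17.6 RPKM in Q175/175 microglia and 9.33 RPKM in Q7/7 microglia, from 1282 and 810 reads, a ratio of 1.89 (1.73 to 2.06). Of 9354 genes compared in microglia, 15 (0.160%) had a log2 difference at least as high. In macrophages it had 2.54 RPKM in Q175/175 cells and 1.80 RPKM in Q7/7 cells, a ratio of 1.41 (1.15 to 1.73), and 32.8% of 9867 genes differed at least as far in that direction. Odc1 was thus higher in the Q175/175 library of both cell types, in macrophages by a difference common among genes, and the difference between the cell types was not tested. The same microglia libraries differed in the summed level of 8 granulocyte genes (571 RPKM in Q175/175, 1788 RPKM in Q7/7). Its part in the Odc1 result was not tested. In the limma fit with genotype and cell type Odc1 was the only member expressed highly enough to be tested. Its log2 difference was 0.59 (SE 0.26, adjusted p = 1.000), so 0 of 1 members were called, with an unadjusted p of 0.0245 that rests on a spread pooled over all genes, against 0.337% of all genes.

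Arg2 was lower in the Q175/175 library of both primary cell types, at few reads. Arg2, and Slc7a2 in macrophages, lay under the RPKM of 1 asked of genes in the comparison over all genes. How common differences of their size are at such levels was not tested. Q175/175 microglia had 2 reads and Q7/7 microglia 15, 6.29-fold fewer after scaling (1.46 to 56.7). Q175/175 macrophages had 2 reads and Q7/7 macrophages 13, 10.3-fold fewer (2.32 to 93.7). The summed level of 8 granulocyte genes moved in the same direction, with 571 RPKM in Q175/175 and 1788 RPKM in Q7/7 microglia, and 215 RPKM in Q175/175 and 428 RPKM in Q7/7 macrophages. All 8 of these genes reached 1 RPKM in all 4 primary libraries. In microglia all 8 were lower in Q175/175 cells. In macrophages 6 were, while Mpo (3.54 RPKM in Q175/175, 2.08 in Q7/7 cells) and Elane (4.61 and 3.51 RPKM) were higher, and their part in the Arg2 result was not tested. In macrophages Slc7a2 had 60 reads in Q175/175 and 18 in Q7/7 cells, a ratio of 2.11 (1.23 to 3.80), and Ass1 had 66 reads in Q175/175 and 64 in Q7/7 cells, a ratio of 0.653 (0.456 to 0.935). A log2 difference of Ass1 at least that far down was seen in 9.14% of genes. Gm5424, the copy that may share reads of Ass1, went the other way, with 2.95 RPKM in Q175/175 and 2.28 RPKM in Q7/7 macrophages. The part of shared reads in the Ass1 ratio was not tested. In microglia Arg1 had 17 reads in Q175/175 and 26 in Q7/7 cells, a ratio whose interval spans 1 (0.397 to 1.49).

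The chromatin around the genes was read from peaks that the authors called in each library by itself, on mm9. No library has a replicate, so a peak listed in some constructs and not in others is a description of those lists. A peak had to stand 4-fold over input and over its surroundings, so a missing one may lie just under that threshold. H3K4me2 marks active and poised promoters and enhancers, PU.1 is the factor that defines myeloid cells, and C/EBPα and C/EBPβ are its partners at many myeloid enhancers. The lists differ in length: Nmu, Nwt and pCDH cells had 42514, 39445 and 39503 H3K4me2 peaks, 64744, 53835 and 71846 PU.1 peaks, 9117, 19732 and 11645 C/EBPα peaks, and 47893, 69522 and 35964 C/EBPβ peaks. Within 20 kb of the 6 starts the lists held 144 peaks in all. Peaks that overlap by at least 1 base were merged into sites. Of 15 H3K4me2 sites near the members, 12 were listed in all 3 constructs, against 64.2% of all H3K4me2 sites. Of 18 PU.1 sites 12 were listed in all 3, against 40.8% of all. For C/EBPα it was 2 of 9, against 25.6%, and for C/EBPβ 9 of 18, against 34.3%. The shares of all sites include sites at any distance from a gene. Sites near other starts were not counted apart, so the gaps cannot be read as particular to these genes.

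Arg1 lies on the minus strand of chromosome 10 (chr10:24635013-24647276, mm9; transcript NM_007482). Its start carried an H3K4me2 region in all 3 constructs, 2012 bp wide in Nmu cells, 2437 bp in Nwt cells and 2519 bp in pCDH cells. A separate H3K4me2 region about 3 kb upstream was listed in Nwt cells (636 bp, chr10:24649895-24650530, centred at −2936 bp) and in pCDH cells (764 bp, chr10:24650047-24650810, at −3152 bp), and no H3K4me2 peak was listed there in Nmu cells. Such a region, present in both control lists alone, was 1 of the 2 near the members and made up 5.2% of all H3K4me2 sites. Factor peaks were nevertheless listed at this place in Nmu cells. PU.1 was listed at −2880 bp in Nmu cells, −2852 bp in Nwt cells and −2908 bp in pCDH cells. C/EBPα was listed at −3038 bp in Nmu cells and −2998 bp in Nwt cells, and C/EBPβ at −2808 bp in Nmu cells and −2824 bp in Nwt cells, neither of them in pCDH cells. Sites listed in Nmu and Nwt cells alone made up 7.12% of all C/EBPα sites and 16.2% of all C/EBPβ sites. For both factors the pCDH library also had the lowest share of tags in peaks. It was 2.38% for C/EBPα, against 3.88% in Nmu and 4.1% in Nwt cells. For C/EBPβ it was 8.09%, against 24.31% in Nmu and 23.02% in Nwt cells. The part of this in the missing peaks was not tested. Further PU.1 sites of all 3 constructs lay at −4218, −676 and 4998 bp. Beyond the 3′ end of the gene, at about 16 kb from the start, all 4 antibodies had a peak in all 3 constructs (H3K4me2 at 15839 bp, PU.1 at 15992 bp, C/EBPα at 16060 bp and C/EBPβ at 16048 bp).

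At Nos2 (chr11:78734361-78773626, plus strand, NM_010927) the H3K4me2 region over the start was wider in Nmu cells. It measured 3072 bp in Nmu cells, from −1140 to 1932 bp, against 1155 bp in Nwt cells and 1101 bp in pCDH cells. That is 2.66 times the wider control. Of 4247 starts with an H3K4me2 region in all 3 constructs, 20 (0.471%) had a ratio at least as high, 40 (0.942%) were at least 2 times as wide in Nmu cells as in both controls, and the median ratio was 0.954. A second H3K4me2 region centred near −4814 bp was listed in all 3 constructs (1424 bp in Nmu, 1692 bp in Nwt and 1548 bp in pCDH cells). It held a PU.1 peak (−4276, −4272 and −4252 bp) and a C/EBPβ peak (−4272, −4288 and −4280 bp) in Nmu, Nwt and pCDH cells. C/EBPβ was also listed just upstream of the start in all 3 (−166, −178 and −180 bp). C/EBPα was listed at the distal place in Nwt and pCDH cells (−4274 and −4320 bp), a pattern that 15% of all C/EBPα sites had, and at the start in Nmu and pCDH cells (−168 and −208 bp), a pattern of 1.45% of sites.

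**Figure D3:**
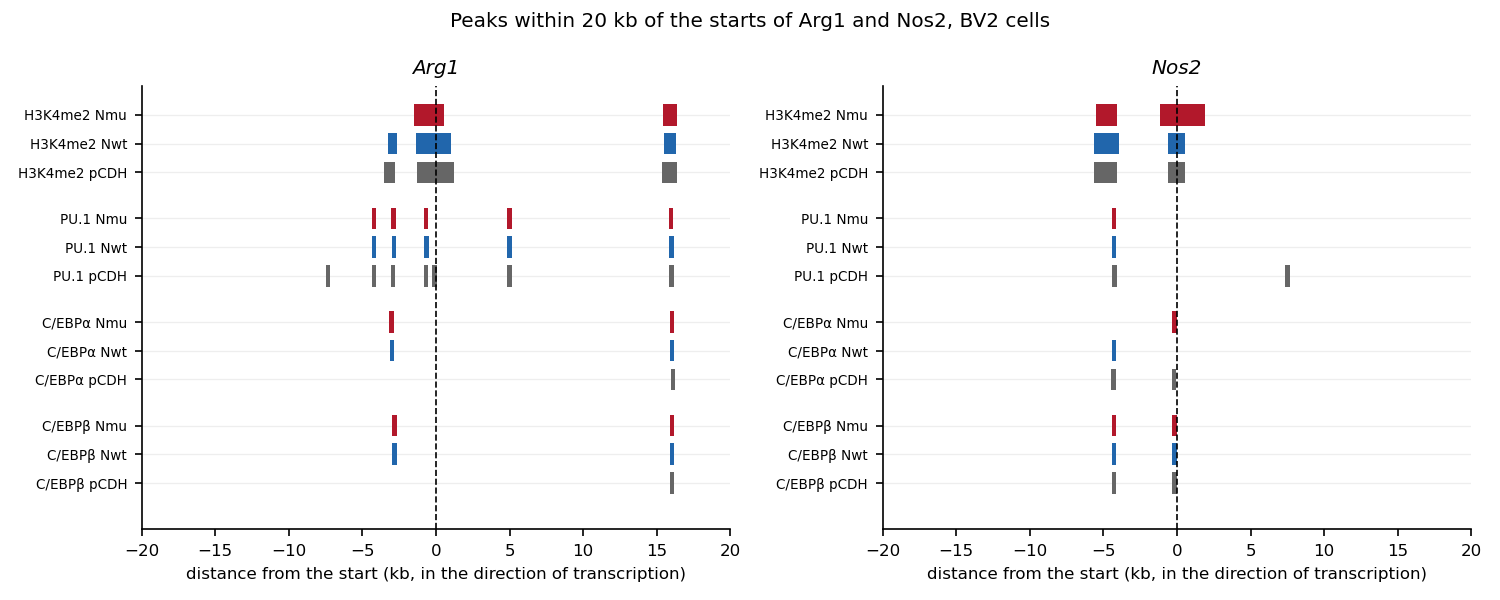
Peaks within 20 kb of the starts of Arg1 and Nos2 in BV2 cells, by antibody and construct, with distance from the start in kb along the direction of transcription on the horizontal axis. Bars span each peak, and peaks under 0.3 kb are drawn 0.3 kb wide. The H3K4me2 region about 3 kb upstream of Arg1 is listed in Nwt and pCDH cells and not in Nmu cells, and the region over the start of Nos2 is 3072 bp wide in Nmu cells against 1155 and 1101 bp in the controls.

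Slc7a2 (chr8:41947721-42007424, plus strand, NM_001044740) had a distal site with H3K4me2 (−11046 bp), PU.1 (−11230 bp) and C/EBPα (−11300 bp) in all 3 constructs, and C/EBPβ there in Nmu and Nwt cells. Its start lay within an H3K4me2 region of 3486 bp in Nmu cells and 3387 bp in pCDH cells. In Nwt cells regions of 774 and 2893 bp flanked the start, with none over it. Arg2 (chr12:80231775-80257288, plus strand, NM_009705) was marked although its RNA was near 0. H3K4me2 at 1662 and 10554 bp inside the gene, PU.1 at 1502, 7350 and 10189 bp, and C/EBPβ at 1487, 10214 and 10799 bp were listed in all 3 constructs, and no peak overlapped its start. Near the starts of 22666 genes, an H3K4me2 peak within 20 kb was listed for 66.5% in Nmu cells, so its presence near all 6 members is no mark of them.

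Odc1 (chr12:17551679-17558308, plus strand, NM_013614) had H3K4me2 on both flanks of its start in all 3 constructs, centred at −486 and 1396 bp in Nmu cells, −488 and 1300 bp in Nwt cells, and −528 and 1466 bp in pCDH cells, with none over the start itself. PU.1 and C/EBPβ shared a distal place upstream in all 3 (−13831 and −13822 bp), where C/EBPα was listed in Nwt and pCDH cells, and C/EBPβ was also listed at 6554 bp, at the 3′ end of the gene. Sites of fewer constructs were C/EBPα at 6562 bp and C/EBPβ at −4182 and 4712 bp in Nwt cells, and C/EBPβ at 9424 bp and PU.1 at 17952 bp in Nmu and Nwt cells. Ass1 (chr2:31325790-31376190, plus strand, NM_007494) had a C/EBPβ peak just upstream of its start, at −288 bp in Nmu, −246 bp in Nwt and −242 bp in pCDH cells, and no C/EBPα peak within 20 kb in any construct. PU.1 was listed at −5921 bp in all 3, at 2647 bp in Nmu and Nwt cells, and at −18724 bp in Nmu cells alone. C/EBPβ was further listed at −16782, −16032 and −5732 bp in Nwt cells alone, the construct with the longest C/EBPβ list. H3K4me2 at −18452 bp was listed in Nwt and pCDH cells alone, in regions of the minimum width of 501 bp, and the larger region at −15580 bp was listed in all 3. The region over the Ass1 start was 2087 bp in Nmu cells and 2290 bp in pCDH cells. In Nwt cells regions of 501 and 679 bp flanked the start, with none over it.

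The core promoters of Odc1 and Ass1 are shown because the gap in H3K4me2 at Odc1 and the C/EBPβ peak at Ass1 overlap them in part. RefSeq sequence was at hand for these 2 of the 6 genes, on GRCm38.p6, a later build than the mm9 of the peaks, so that positions are given from the start only. Each runs from 250 bases before the start to 50 bases after it, on the plus strand (Ass1 chr2:31470020-31470319, Odc1 chr12:17544623-17544922), and capitals mark matches on either strand to the motifs searched: the E-box CACGTG, the GC box GGGCGG and the TATA motif TATAA.
Odc1: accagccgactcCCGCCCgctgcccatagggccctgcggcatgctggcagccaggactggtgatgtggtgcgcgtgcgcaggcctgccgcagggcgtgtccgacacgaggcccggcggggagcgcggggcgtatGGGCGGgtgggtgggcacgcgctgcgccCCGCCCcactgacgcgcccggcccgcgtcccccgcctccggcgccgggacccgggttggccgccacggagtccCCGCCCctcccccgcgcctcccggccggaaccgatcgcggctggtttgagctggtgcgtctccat
Ass1: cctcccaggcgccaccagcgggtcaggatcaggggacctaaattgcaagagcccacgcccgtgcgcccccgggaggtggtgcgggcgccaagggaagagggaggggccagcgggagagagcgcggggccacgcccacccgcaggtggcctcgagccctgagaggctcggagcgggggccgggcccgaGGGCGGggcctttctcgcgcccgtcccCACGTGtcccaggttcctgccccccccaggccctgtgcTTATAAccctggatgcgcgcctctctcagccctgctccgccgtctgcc
Both promoters are rich in G and C (78% in Odc1, 74% in Ass1). That of Odc1 held 4 GC boxes, at −238, −116, −88 and −15, and no E-box or TATA motif, and that of Ass1 held 1 GC box at −63, an E-box at −36 and a TATA motif just past the annotated start, where matches on the 2 strands overlap and were counted once. Among 32851 mouse promoters of the same length, 35.7% held a GC box, 7.15% an E-box and 24.9% a TATA motif. Neither promoter held the C/EBP letters TTGCNNAA (10.8% of promoters) or the PU.1 letters GGAAGT (23.8%) in this window.

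**Figure D4:**
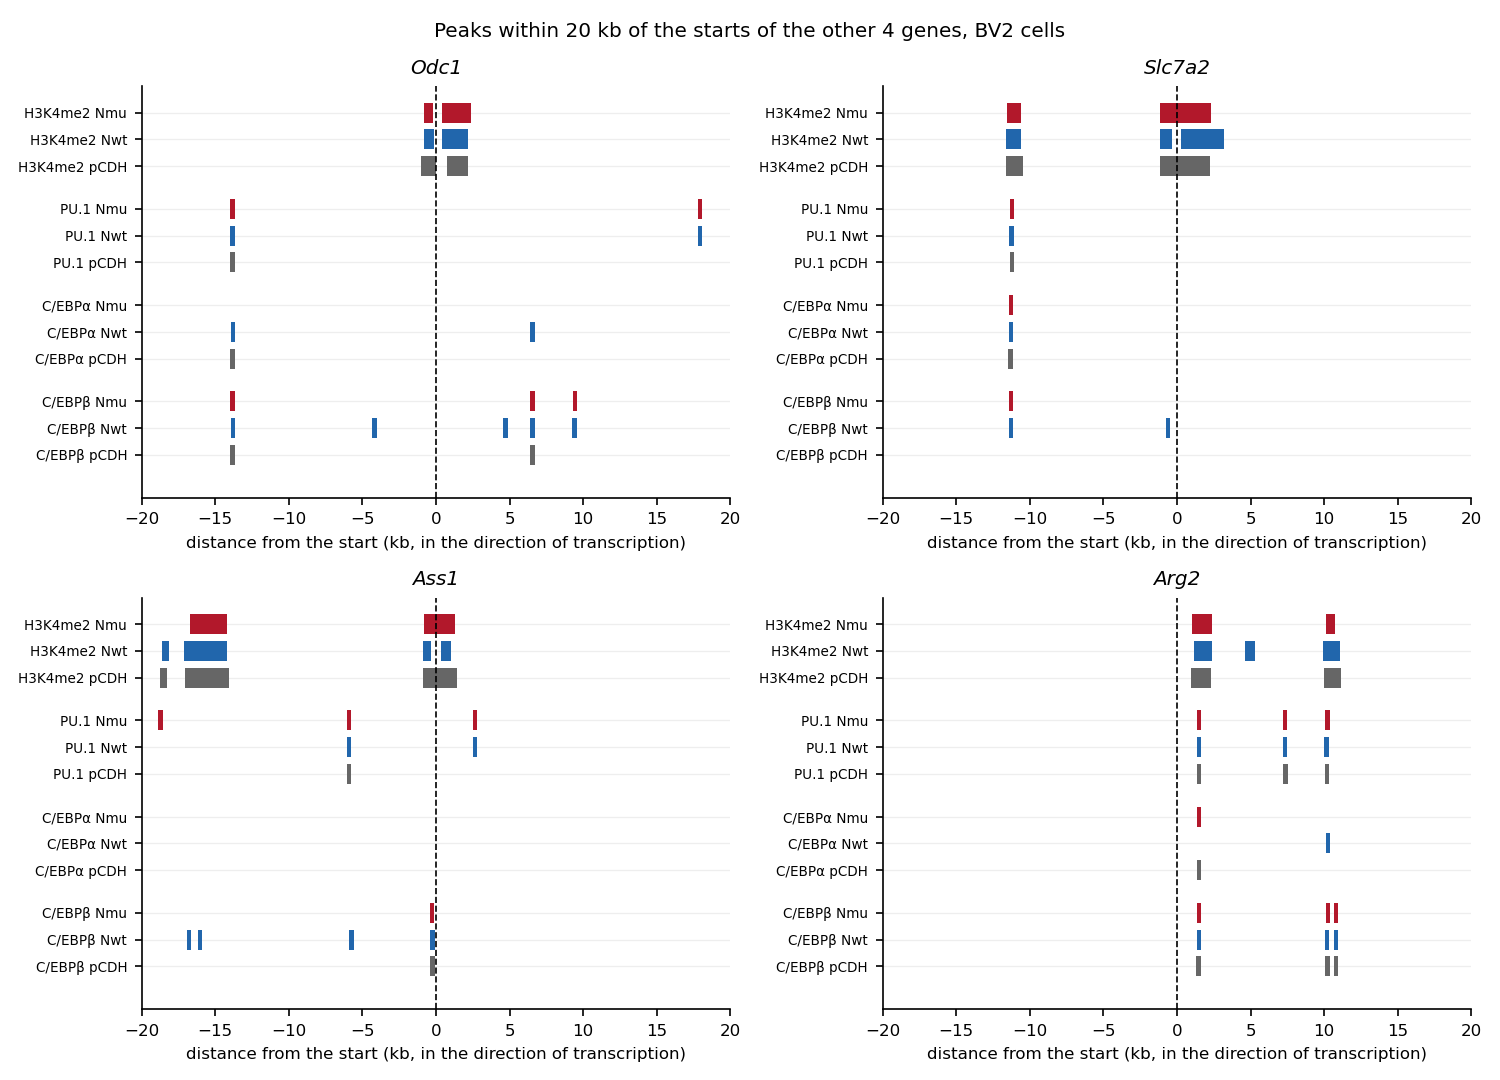
Peaks within 20 kb of the starts of Odc1, Slc7a2, Ass1 and Arg2 in BV2 cells, drawn by distance from the start in kb along the direction of transcription, by antibody and construct. Most H3K4me2 and PU.1 sites recur in the 3 constructs. H3K4me2 leaves the start of Odc1 bare in all 3, and C/EBPβ lies at −288, −246 and −242 bp of Ass1 in Nmu, Nwt and pCDH cells.

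The rest of the pathway was followed in 7 lists of genes, in the fit with both controls as 1 group. In the fit with construct and time, limma called 0 genes of these lists between Nmu and pCDH cells. An unadjusted p under 0.05 was reached there by 0 to 4 genes a list, and by 1584 of all 10350 genes. At 24 h the median log2 difference over all genes was 0.05, and at the second time −0.03. Of 6 genes of arginine supply and the urea cycle that could be tested, 3 were higher in Nmu cells at 24 h and none lower, with a list median of 0.38, where 39.6% of all genes were called. They were Slc7a1, the general arginine transporter (27.4 RPKM in Nmu cells and at most 12.3 RPKM in the controls, adjusted p = 0.00274), Slc3a2, the shared heavy chain of several amino acid transporters (37.5, 19.2 and 18.3 RPKM, adjusted p = 0.00383), and Asl, the partner of Ass1 that releases arginine (7.91, 4.93 and 5.48 RPKM, adjusted p = 0.0188). While Slc7a2 was lower at 24 h, Slc7a1 was thus higher. At the second time 0 of the 6 passed in limma, adjusted or not (median 0.13), where 23.5% of all genes were called.

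The list of nitric oxide synthesis and its cofactor tetrahydrobiopterin had 10 tested genes. Of these, 3 were higher and 4 lower in Nmu cells at 24 h (39.6% of all genes called, median −0.03). At the second time 0 passed in limma (median −0.12), where 23.5% of all genes did. An unadjusted p under 0.05 was reached at the second time by 3 of the 10 and by 4020 of all 10350 genes. Gch1, the first enzyme of the cofactor, was higher (2.85 RPKM in Nmu, 1.35 in Nwt and 1.01 in pCDH cells, adjusted p = 0.00859), and so was Spr (log2 difference 0.70), which takes the last step to the cofactor. Gchfr, a protein that restrains Gch1, was lower (0.700, 5.96 and 8.36 RPKM, adjusted p = 0.00192). Ddah1 and Ddah2, which remove methylarginines that inhibit nitric oxide synthases, were lower as well: Ddah1 had 3.29 RPKM in Nmu, 19.8 in Nwt and 18.7 in pCDH cells (adjusted p = 0.00100), and Ddah2 had 0.489, 2.55 and 1.61 RPKM (adjusted p = 0.0142). Nostrin was lower too (−0.69, adjusted p = 0.0300). Gchfr and Ddah2 would have missed the filter without the control libraries, so their calls are no independent evidence of a lower level in Nmu cells.

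Of 15 genes of polyamine synthesis and turnover, 6 were higher and 3 lower at 24 h (median 0.21, 39.6% of all genes called), and 1 higher and 1 lower at the second time (median −0.11, 23.5% of all genes called). Srm, the spermidine synthase downstream of Odc1, was higher at both times, with 43.1 RPKM in Nmu, 18.8 in Nwt and 23.5 in pCDH cells at 24 h (adjusted p = 0.00804) and 70.5, 44.9 and 45.0 RPKM at the second time (adjusted p = 0.0409). Smox, the spermine oxidase, was higher at 24 h (12.5, 6.84 and 5.42 RPKM, adjusted p = 0.00865), as were Azin1, Sms, Dhps and Eif5a, the protein that receives hypusine from spermidine (log2 differences 0.71, 0.44, 0.79 and 0.58). Sat1, which acetylates polyamines for export or breakdown, was lower at both times (log2 difference −0.72 at 24 h and −0.45 at the second time, adjusted p = 0.00748 and 0.0396). Sat2 (−0.71) and Paox (−0.62) were lower at 24 h. Since Sat2 passed the filter only through the pCDH libraries, its call is no independent evidence of a lower level in Nmu cells. Of the same 15 genes, 11 were higher and 1 lower in BV2 control cells than in microglia. Over all genes 71.7% were called there, and 57.8% of those calls were higher. Among the 11, Amd1, Amd2 and Paox would have missed the filter without BV2 control cells, so their calls are no independent evidence. Amd1 and Amd2 also had nearly equal values in every library and may not count as separate genes.

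Of 5 genes that link ornithine to proline and glutamate, 2 were higher at 24 h, among them Aldh18a1 (log2 difference 0.52), an enzyme of proline synthesis, and the list median was −0.06, with 39.6% of all genes called. At the second time 0 of the 5 passed in limma, adjusted or not (median 0.13), where 23.5% of all genes were called. Of 4 genes that lead from arginine to creatine, 3 were lower and 1 higher at 24 h (median −0.93, 39.6% of all genes called). Gatm, which joins arginine and glycine, had 5.03 RPKM in Nmu, 13.9 in Nwt and 14.3 in pCDH cells (adjusted p = 0.00185), Gamt, the next enzyme, had 0.389, 4.06 and 3.94 RPKM (adjusted p = 0.00176), and Slc6a8, the creatine transporter, was higher with 31.4, 17.7 and 17.7 RPKM (adjusted p = 0.00493). Ckb, a creatine kinase, was lower at 24 h (−0.53) and higher at the second time (1.20, adjusted p = 0.00818). Gamt would have missed the filter without the control libraries, so its call at 24 h is no independent evidence of a lower level in Nmu cells.

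Factors known to act at Arg1 moved in both directions, 4 of 10 higher and 2 lower at 24 h (median 0.16, 39.6% of all genes called), and 3 higher and 1 lower at the second time (median 0.17, 23.5% of all genes called). Cebpb had 149 RPKM in Nmu, 52.4 in Nwt and 51.6 in pCDH cells at 24 h (adjusted p = 0.00167), and Spi1, which encodes PU.1, had 47.8, 25.8 and 26.9 RPKM (adjusted p = 0.00467) and was higher at the second time as well (1.22, adjusted p = 0.00599). Pparg, a nuclear receptor of alternatively activated macrophages, was lower with 0.0790 RPKM in Nmu, 2.71 in Nwt and 2.97 in pCDH cells (adjusted p = 0.00154). It passed the filter only through the 2 control libraries of 24 h. A lower level in Nmu cells at 24 h was thus built into its entry, and its call is no independent evidence of it. Epas1 was lower at 24 h (−0.94) and higher at the second time (0.60), and Il4ra (0.48) and Il13ra1 (0.43) were higher at 24 h. Stat6, the factor that interleukin-4 activates, named after its values were seen, did not pass at either time (−0.36 and 0.16).

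Of 11 tested factors known to act at Nos2, 4 were higher and 3 lower at 24 h (median 0.13, 39.6% of all genes called), and 4 higher and 1 lower at the second time (median 0.46, 23.5% of all genes called). The genes of NF-κB subunits were higher at both times: Nfkb1 had 12.1 RPKM in Nmu, 5.07 in Nwt and 5.01 in pCDH cells at 24 h (adjusted p = 0.00211), and Rela 11.5, 5.80 and 5.47 RPKM (adjusted p = 0.00429). Tnf, a cytokine that activates NF-κB, had 15.9, 3.04 and 1.86 RPKM at 24 h and 18.3, 3.11 and 3.30 RPKM at the second time (log2 differences 2.31 and 2.20, adjusted p = 0.00236 and 0.00688). Tlr4, the receptor for bacterial lipopolysaccharide, was lower at both times (−0.89 and −1.40, adjusted p = 0.00472 and 0.00554), and Ifngr1, a chain of the interferon-γ receptor, was lower at 24 h (−1.68, adjusted p = 0.00127). All 11 of these genes had lower values in BV2 control cells than in microglia, and 10 of them passed the test, where 71.7% of all genes did.

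The calls of list genes were followed with each control library left out. Of the 38 called at 24 h, 22 kept the call whichever control was missing, and 15 lost it at least once, among them Asl, Spr, Nostrin, Sms, Azin1, Dhps, Paox, Sat2, Aldh18a1, Ckb, Il4ra, Il13ra1 and Jun. Pparg was too low to be tested without either control of 24 h. Of the 12 called at the second time, 0 passed without the second pCDH library (Srm at an adjusted p of 0.141, Sat1 at 0.116, Ckb at 0.0545, Tnf at 0.0531, Spi1 and Tlr4 at 0.0523), and Spi1 and Tlr4 alone passed without the second Nwt library (0.0487 for both).

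**Figure D5:**
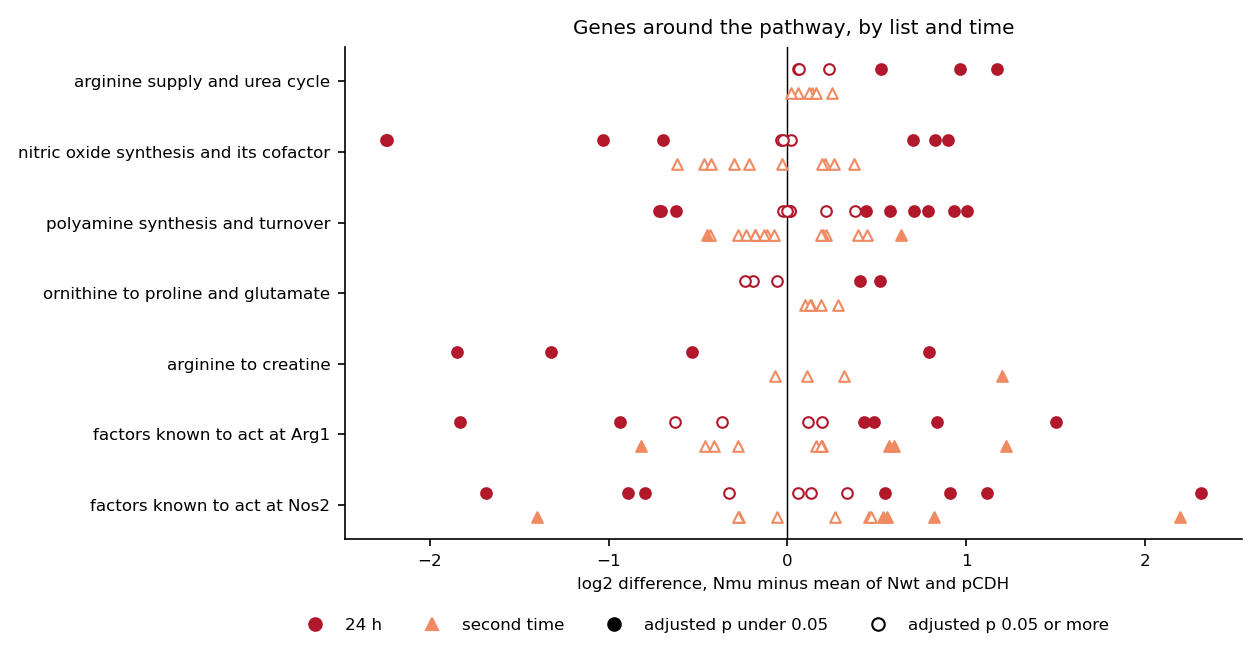
Log2 difference between Nmu cells and the mean of Nwt and pCDH cells for the tested genes of 7 lists, at 24 h (circles) and at the second time (triangles). Filled symbols have an adjusted p under 0.05. In the nitric oxide list 3 genes are higher and 4 lower at 24 h and 0 pass at the second time, while Tnf is the rightmost point of the bottom list at both times.

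Genes with the most similar profile over the 10 RNA libraries were found by the root mean square difference between log2(RPKM + 1) profiles, each centred on its own mean, among 8077 genes. For Arg1 they were Selenbp2 (0.92), Selenbp1 (1.12), Cyp11a1 (1.25), Flt1 (1.26) and Mgl2 (1.26), against a root mean square of 2.87 for the Arg1 profile itself. Mgl2, a lectin of alternatively activated mouse macrophages, had 1.66 and 4.71 RPKM in Nmu, 25.0 and 8.16 in Nwt, and 28.4 and 9.88 RPKM in pCDH cells at 24 h and the second time. For Nos2 the nearest were Ptpn14 (0.36), H2-T3 (0.37), Akr1b7 (0.40), Ptprs (0.41) and C130026I21Rik (0.45), against 1.05 for Nos2 itself. Ptpn14 had 11.2 and 5.72 RPKM in Nmu cells and at most 0.864 RPKM in any other library. For Odc1 the nearest was Slc7a5, the light chain that pairs with Slc3a2 (0.40, against 1.58), followed by Eif1, Zcwpw1, Mcts2 and Mt1. For Slc7a2 it was Map6 (0.17, against 1.19), followed by Lrrn4cl, Map1a, Egln3 and Rtkn. For Ass1 it was Ndufs5 (0.26, against 1.66), with Acta2, Gm5424, Cox8a and Rplp0 next. Arg2, near 0 in all libraries, has a nearly flat profile (0.14), and its nearest genes are flat ones such as Dcaf8 (0.12). The 10 libraries share constructs, cell types and depth, so these are descriptions and carry no test.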

How the data were processed

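The RNA values are RPKM that the authors deposited for 31641 RefSeq transcripts; the submitters' processing notes name mm9, STAR 2.0.3e, HOMER and edgeR. The peak lists were called by HOMER on each library, per the file headers, against an input named after another macrophage source. The score deposited for each peak is 1 throughout, and the widths and positions alone were used. Where a symbol had several transcripts, that of the highest mean level stood for it. Reads were recovered from RPKM steps, with 100% of low values whole within 0.1 reads, and ratios carry exact conditional binomial 95% intervals.

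limma 3.58.1 (R 4.3.3) was run on log2(RPKM + 1) for genes that reached an RPKM of 1 in 2 or more of the fitted libraries, checked on simulated data, with Benjamini-Hochberg adjustment over all genes and a threshold of 0.05. The BV2 fit had construct and time as terms (6 libraries, 2 residual degrees of freedom), the primary fit genotype and cell type (4 libraries, 1 residual degree of freedom, with limma's prior degrees of freedom estimated as infinite, which gives every gene the same standard error), and the cell type fit 8 libraries. The fit with both controls as 1 group was added after seeing the data. No library has a replicate at the same time. The members and lists were chosen with earlier results of these data known. Some genes of the lists are counted but not reported here by name. Named genes are the members, the genes of each list past the threshold or, where fewer than 3 were, those largest with 1 sign at both times, and the 5 nearest profiles among genes of at least 200 bases and 5 RPKM. Alternatives changed the pseudocount, filter, scaling, transcript, terms, window and overlap, and left out each library.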

Additional observations from a re-analysis of the deposited data

Results flagged for a closer look

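For 4 of the genes the difference of Nmu from control cells was not the same at 24 h and at the second time. This was tested as an interaction in limma with both controls as 1 group, a fit added because these differences had been seen. It sets 1 Nmu library against another, so that a library's own deviation and an effect of the time cannot be told apart. Without the second Nwt library 0 of the 4 passed (adjusted p of 0.0502 to 0.0588), and without the second pCDH library Arg1 alone did. The effect at the second time minus that at 24 h was 4.57 on the log2 scale for Arg1, whose deficit in Nmu cells was 141-fold at 24 h and 4.61-fold at the second time against pCDH cells. It was −1.31 for Odc1, whose excess in Nmu cells over pCDH cells was 3.44-fold and 1.22-fold. It was 0.98 for Slc7a2, whose deficit was 4.14-fold and 1.78-fold. It was 0.99 for Ass1, whose ratio of Nmu to pCDH cells was 0.924 and 2.35. Lcn2 stood at 219 RPKM in Nmu cells at 24 h and 1.98 RPKM in Nmu cells at the second time, against 0.084 to 0.180 RPKM in the 4 controls, and its relation to these results was not tested.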

How the results depend on the processing

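Over 784 values of the members under other settings, 717 kept their side of the threshold, 13 of them with a changed sign and no call, 32 lost a call, 35 gained one and 0 called values reversed. The 4 calls at 24 h held under all 12 settings tried. Counts of called genes depended strongly on the setting, and the causes were not tested. For Nmu against pCDH cells the 9 genes became 0 with a pseudocount of 5 or no filter, 5 with median rescaling, 27 without transcripts under 200 bases, 17 with the longest transcript, 3 without time, 673 with both controls as 1 group, and 16 to 3400 with a library left out. For Nmu against Nwt cells the 7 became 0 with a pseudocount of 5 or no filter, 26 without short transcripts, 4 without time and 73 to 3410 with a library left out. Nwt against pCDH cells gave 0 to 41 and the second time against 24 h 0 to 4598 with a library left out, the second also 444 with a pseudocount of 5 and 543 without short transcripts. For Q175/175 against Q7/7 the 36 became 75 with a pseudocount of 0.25, 14 without short transcripts, and 0 with a pseudocount of 5, no filter, quantile normalization, median rescaling or genotype alone. For the controls as 1 group, no filter gave 1493 genes at the second time (2435 otherwise) and 1795 for the difference between times (2910 otherwise). With a library left out these were 35 to 1888 and 0 to 2126, and the times in control cells gave 2346 to 3307 (4856 otherwise). Odc1 between microglia and macrophages missed the threshold with a pseudocount of 5 (adjusted p = 0.0916) and with no filter (0.0602), and Ass1 with a pseudocount of 5 (0.0763). At the second time Nos2 (0.0765) and Ass1 (0.0909) missed it with no filter. Near the members 73 peaks lay within 5 kb and 320 within 50 kb (144 within 20 kb), and 7 H3K4me2 sites were shared where centres had to lie within 100 bases (12 otherwise). Time, the only link between libraries of different constructs, is a term of the planned fit, and the counts without it are given above. Reads limit Arg2, and Arg1 and Nos2 in primary cells.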
